A study of Mus musculus with 6 samples.

Results

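Aldehyde dehydrogenases are enzymes that oxidise aldehydes to carboxylic acids with NAD or NADP as cofactor. RNA levels of 10 of these enzymes in mouse corneas were followed, namely Aldh3a1, Aldh1a1, Aldh1a2, Aldh1a3, Aldh1a7, Aldh2, Aldh3a2, Aldh3b1, Aldh7a1 and Aldh9a1. The genes were chosen by name, and all 10 were found among the 55421 genes counted in each library. All 10 also passed the low-count filter that left 15209 genes for testing. Whole corneas of mice aged 20 weeks were profiled by RNA-seq, as 3 libraries (M1 to M3) from animals heterozygous for a Pax6 mutation and 3 libraries (W1 to W3) from wildtype animals. The labels name neither the mutant allele nor the strain or sex, and the series design calls the 3 libraries of each genotype biological replicates. Pax6 is the paired-box transcription factor of eye development, and loss of a single copy causes aniridia and its corneal disease in humans, the setting that the study's title names. The comparison asked which transcripts differ between mutant and wildtype corneas.

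Aldh3a1 is the main soluble protein of the corneal epithelium in many mammals and is called a corneal crystallin for that reason. It absorbs ultraviolet light and oxidises the reactive aldehydes that form when membrane lipids are peroxidised. Aldh1a1, Aldh1a2 and Aldh1a3 are the retinaldehyde dehydrogenases, which make retinoic acid, the hormone-like vitamin A product that controls epithelial differentiation and eye development. The mitochondrial Aldh2 and the other members clear aldehydes from ethanol, lipids, amino acids and polyamines.

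The libraries held 16858005 to 21846406 gene counts in mutant and 17033330 to 18940934 in wildtype. Values per library are counts per 1e6 gene counts (CPM) on scaled library totals. Pax6 itself stood at 454, 394 and 356 CPM in M1 to M3, against 849, 746 and 774 CPM in W1 to W3, a log2 fold change (mutant minus wildtype) of -0.98 ± 0.14 (SE) with no overlap, so the labels and the Pax6 levels did not conflict. The corneal epithelial keratin Krt12 was present at 4145 CPM or more in every library. Some libraries carried more or less RNA of neighbouring tissue. The summed level of 4 photoreceptor markers was 15.1 to 67.4 CPM in mutant and 11.3, 50.5 and 1620 CPM in W1 to W3. W1 held little vascular or pigment cell RNA, with summed marker levels of 0.681 CPM for 6 vascular and 9.82 CPM for 5 pigment cell genes. The other 5 libraries held 26.3 to 95.0 CPM and 188 to 413 CPM of these. The first principal component, with 50.05% of the variance, set W1 farthest from the rest. Stromal markers (8 genes) summed to 4861 CPM in M1, 1974 in M2 and 844 in M3, against 344 to 405 CPM in wildtype, and 5 of the 8 rose. Epithelial markers (6 genes) summed to 12280 to 16620 CPM in mutant and 26150 to 36750 CPM in wildtype, and 2 of the 6, Krt12 and Upk1b, fell. M1 was the sole library with Xist RNA and no Y-linked counts, that of a female. In whole tissue, fewer cells of a type and less RNA per cell cannot be told apart.

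Among the 10 genes, Aldh1a3 rose and Aldh1a1 fell in mutant corneas, while Aldh3a1 was lower in every mutant library with an adjusted p just above the threshold of 0.05. The other 7 were not called. Over all genes tested 10.1% were called, 5.59% higher and 4.46% lower, so a single call in each direction among 10 genes stands against that background. Calls and adjusted p-values are from the quasi-likelihood test of edgeR, adjusted over all tested genes after Benjamini and Hochberg, unless another tool is named. The libraries of the genotypes did not overlap for 1 gene that was higher in mutant and 3 that were lower, where 17.1% and 14.7% of all tested genes behaved so. The median log2 fold change (mutant minus wildtype) of the 10 genes was -0.14, beside 0.01 over all tested genes.

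**Figure D1:**
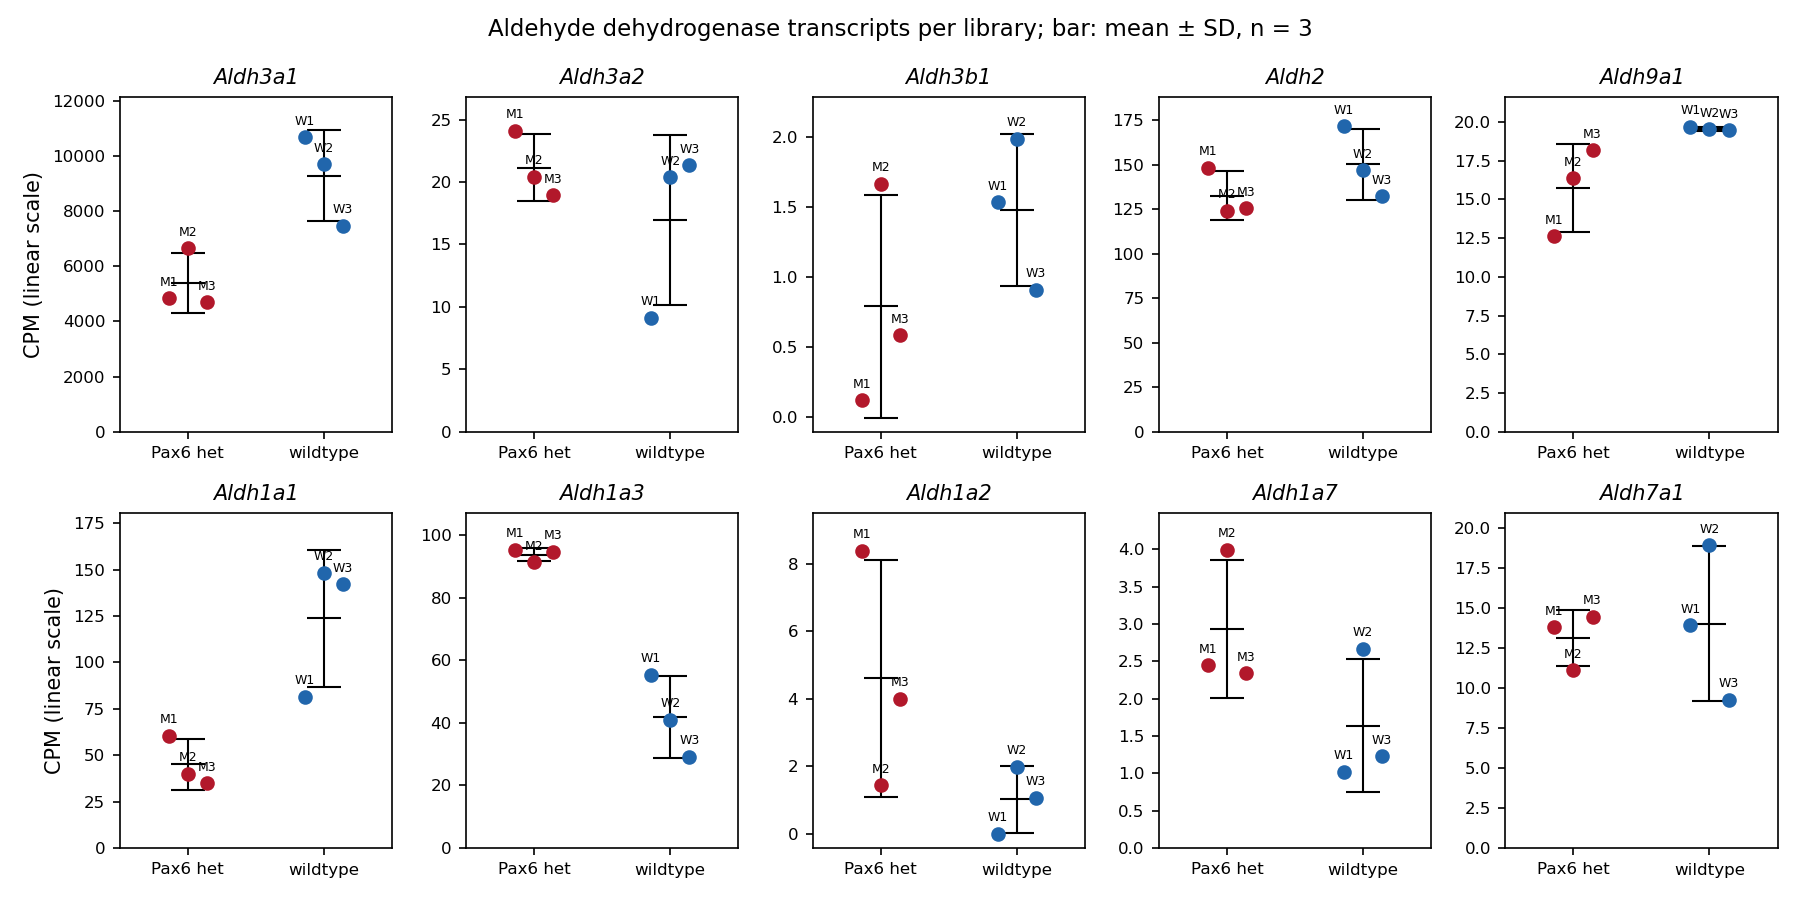
CPM of each of the 10 aldehyde dehydrogenases (y axis, linear, own scale per panel) in the Pax6 heterozygous mutant libraries M1 to M3 (red) and the wildtype libraries W1 to W3 (blue); bars give mean ± SD of 3 libraries. The mutant points lie below all wildtype points for Aldh3a1, Aldh1a1 and Aldh9a1 and above them for Aldh1a3.

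Aldh3a1 (ENSMUSG00000019102, chromosome 11, 61207537 to 61218421, plus strand, GRCm38) was the most abundant member per length in every library. It held 4836, 6646 and 4702 CPM in M1 to M3, against 10680, 9695 and 7474 CPM in W1 to W3. Every mutant library was below every wildtype library, and the nearest pair was M2 and W3. The means were 5395 ± 1085 CPM in mutant and 9282 ± 1640 CPM in wildtype (SD, n = 3 each), a log2 fold change of -0.78 ± 0.21 (SE). The adjusted p in edgeR was 0.057, which misses the threshold. The adjusted p ranged from 0.00024 to 0.25 over 16 other ways of fitting, 8 of which passed the threshold, among them DESeq2 (0.00024), limma-voom (0.028) and the fits without W1 (0.038) or W3 (0.045). All 16 gave a lower level in mutant. The summed epithelial markers were also lower in each mutant library, as given above, and their part in the Aldh3a1 difference was not tested.

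Aldh3a1 took 0.469% to 0.673% of all gene counts in mutant and 0.770% to 1.003% in wildtype. Of those counts, the single gene Gm23935 held 13.38% to 15% in mutant and 15.13% to 16.22% in wildtype. Mitochondrial genes held 5.473% to 7.025% in mutant and 2.405% to 4.295% in wildtype. With mitochondrial and structural RNA genes left out, the log2 fold change of Aldh3a1 was -0.79 (adjusted p = 0.058, edgeR). Because Aldh3a1 is known as a protein of the corneal epithelium, its RNA level was also set against 3 epithelial genes of the same library, per kilobase (kb) of exon. The counts do not tell which cells of the cornea held Aldh3a1 RNA. The log2 ratio of Aldh3a1 to Cdh1, the epithelial cadherin, was 4.13, 4.64 and 4.04 in M1 to M3, against 5.10, 5.28 and 5.01 in W1 to W3, with no overlap. Relative to Krt5, a keratin of basal cells, the log2 ratio was -0.27 ± 0.19 in mutant and -0.06 ± 0.10 in wildtype (SD, n = 3 each), and the genotypes overlapped. Relative to Krt12, the keratin of differentiated corneal epithelium, it was higher in mutant, at 0.0014 ± 0.156 in mutant and -1.06 ± 0.07 in wildtype with no overlap, and Krt12 itself was 3.52-fold lower. Relative to Pax6 it was 6.33 ± 0.33 in mutant and 6.13 ± 0.23 in wildtype, with overlap. With 3 libraries against 3 an exact permutation test cannot go below p = 0.1, so no p is given for ratios and shares within a library.

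The neighbour of Aldh3a1 on chromosome 11, Aldh3a2 (61223417 to 61267464, minus strand), encodes the fatty aldehyde dehydrogenase of the endoplasmic reticulum. It stood at 24.1, 20.4 and 19.0 CPM in M1 to M3, against 9.14, 20.4 and 21.3 CPM in W1 to W3. Only W1 was low, and the genotypes otherwise overlapped (log2 fold change 0.32 ± 0.31, SE; adjusted p = 0.60 by edgeR). Aldh3b1, an enzyme for medium- and long-chain aldehydes at membranes, was near the limit of detection. It had 2, 30 and 13 counts in M1 to M3 and 27, 35 and 17 in W1 to W3. Its log2 fold change of -0.89 ± 0.88 (SE) was not called, and moved to -2.01 without M2 and -0.39 without M1. Its counts are uncertain, since they are few and 8.97% of its 50-base stretches also stand in transcripts of Aldh3b2 or Aldh3b3. How many reads that sharing made ambiguous was not measured.

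Aldh1a1 (ENSMUSG00000053279, chromosome 19, 20492715 to 20643465, plus strand) was lower in mutant corneas. It stood at 60.4, 40.0 and 34.8 CPM in M1 to M3, against 81.4, 148 and 142 CPM in W1 to W3. The genotypes did not overlap, and W1 was the low wildtype library. The log2 fold change was -1.46 ± 0.28 (SE), or 2.75-fold lower (adjusted p = 0.015, edgeR). The call was lost without M2 (adjusted p = 0.074), without M3 (0.073) or without W2 (0.054), and held without W3, the library with photoreceptor RNA (0.040). All alternatives kept a lower level in mutant, with log2 fold changes of -1.97 to -1.31. Relative to Cdh1 of the same library, per kb, the log2 ratio of Aldh1a1 was -4.00 ± 0.43 in mutant and -2.48 ± 0.70 in wildtype (SD, n = 3 each), with no overlap, while relative to Krt5 and to Pax6 the genotypes overlapped. Relative to Krt12 the direction turned, at -8.27 ± 0.65 in mutant and -8.67 ± 0.71 in wildtype, and the genotypes overlapped.

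Aldh1a3 (ENSMUSG00000015134, chromosome 7, 66390890 to 66427517, minus strand), the retinaldehyde dehydrogenase of surface epithelia and ventral retina in the mouse embryo, was higher in mutant corneas. It held 95.3, 91.5 and 94.7 CPM in M1 to M3, against 55.4, 41.0 and 29.2 CPM in W1 to W3. The mutant libraries were within a narrow range, and every one of them was above every wildtype library. The means of 93.8 ± 2.08 CPM in mutant and 41.9 ± 13.1 CPM in wildtype (SD, n = 3 each) gave a log2 fold change of 1.16 ± 0.21 (SE), or 2.24-fold higher (adjusted p = 0.013, edgeR). The call was lost without M1 or M2 (adjusted p = 0.0501 each), M3 (0.062) or W2 (0.054), and held without W1 (0.0012) and without W3 (0.020). Markers of conjunctival and goblet epithelium summed to 16250 to 17550 CPM in mutant and 5122 to 8594 CPM in wildtype, and 6 of the 7 tested of 8 listed rose. Muc4 made up most of these sums, with means of 10150 CPM in mutant and 5832 CPM in wildtype, and was the tested marker that was not called. Leukocyte markers summed to 190 to 230 CPM in mutant and 46.0 to 67.9 CPM in wildtype, and 6 of 7 rose. Stromal markers also summed higher, at 844 to 4861 CPM in mutant and 344 to 405 CPM in wildtype, and 5 of 8 rose. Over all genes tested 5.59% were called higher. The part of these cells in the Aldh1a3 difference was not tested. Aldh1a3 transcripts share 1.15% of their 50-base stretches with other genes, and no annotated exon of another gene overlaps its exons.

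Aldh1a3 and Aldh1a1 thus differed in opposite directions within the same libraries. The log2 ratio of Aldh1a3 to Aldh1a1 per kb was 0.75, 1.29 and 1.54 in M1 to M3, against -0.46, -1.76 and -2.19 in W1 to W3. Per kb, Aldh1a3 was the more abundant of the pair in every mutant library and Aldh1a1 in every wildtype library. The lengths used were the merged exons of all annotated transcripts, 4937 bases for Aldh1a1, 4617 for Aldh1a3 and 2066 for Aldh1a7. Which transcripts were present is not known from the counts. A shorter transcript in use would raise the per-kb level of its gene, so this order and the shares below depend on these lengths. Of the summed per-kb level of the 4 Aldh1a genes, Aldh1a3 held 62.3 ± 6.76% in mutant and 26.9 ± 12.8% in wildtype (SD, n = 3 each). Aldh1a1 held 27.4 ± 4.70% in mutant and 69.8 ± 11.7% in wildtype. The sum itself was 37.8, 30.5 and 30.5 CPM per kb in M1 to M3, against 29.0, 41.1 and 36.2 CPM per kb in W1 to W3, so the genotypes overlapped. The difference of the mean sums, -2.52 CPM per kb, was smaller than the SD in either genotype, 4.22 in mutant and 6.07 in wildtype. W1, the library with little vascular or pigment cell RNA, lay closest to the mutant libraries in this ratio.

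**Figure D2:**
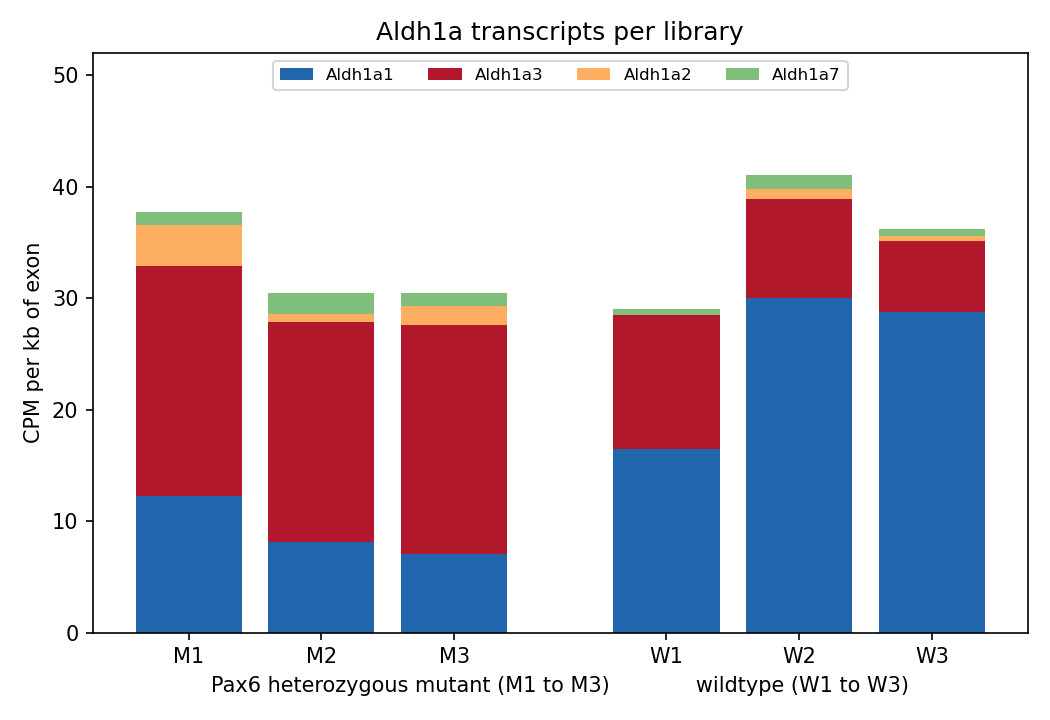
Stacked bars give the level of the 4 Aldh1a genes (y axis, CPM per kb of exon) in each mutant library (M1 to M3) and each wildtype library (W1 to W3). The Aldh1a3 segment is the largest in each mutant bar and the Aldh1a1 segment in each wildtype bar, while the bar heights of the genotypes overlap.

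Aldh1a2, the retinaldehyde dehydrogenase of mesenchyme in the embryo, was low and variable. It stood at 8.39, 1.44 and 4.01 CPM in M1 to M3, against 0, 1.99 and 1.07 CPM in W1 to W3. Its log2 fold change of 2.17 ± 1.14 (SE) was not called by edgeR (adjusted p = 0.30), and only without the low-count filter did it pass (0.013). M1, the highest library for Aldh1a2, was also the highest for the 8 stromal markers (4861 CPM summed) and the 6 vascular markers (95.0 CPM), and W1, with no Aldh1a2 count, was the lowest for the vascular markers (0.681 CPM). The part of these cells in the difference was not tested.

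Aldh1a7, a close copy of Aldh1a1 known from rat liver as an enzyme induced by phenobarbital, lies beside it on the opposite strand (chromosome 19, 20692953 to 20727562, minus strand). It had 40, 72 and 52 counts in M1 to M3, against 18, 47 and 23 in W1 to W3. In CPM this was 2.93 ± 0.926 in mutant and 1.64 ± 0.897 in wildtype (SD, n = 3 each), and it was not called (log2 fold change 0.83 ± 0.55, SE; adjusted p = 0.42 by edgeR). The log2 ratio of Aldh1a1 to Aldh1a7 per kb was 2.69 ± 0.653 in mutant and 5.07 ± 0.528 in wildtype, with no overlap. The best matching transcripts of the pair are identical at 88.8% of aligned positions, and 151 stretches of 50 bases occur in both, 3.06% of those of Aldh1a1 and 7.49% of those of Aldh1a7. The longest identical run in the alignment was 100 bases, and reads were 100-nucleotide pairs that can reach past a shared stretch. How many reads could be assigned to neither copy was not measured. With both genes summed, the log2 fold change was -1.39 (adjusted p = 0.017, edgeR).

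The promoters of Aldh1a1 and Aldh1a7 are shown because the copies also share the sequence around their start sites, while Aldh1a1 was called lower and Aldh1a7 was not. RefSeq (GRCm38.p6) gave promoters, from 250 bases before to 50 after a start site, for 6 of the 10 genes: Aldh1a1 with 2 start sites, Aldh1a2, Aldh1a7, Aldh3a2, Aldh3b1 and Aldh9a1. These motifs were searched on both strands: the octamer ATGCAAAT bound by POU-domain factors, the core GCGTG of the xenobiotic response element, the core TGACNNNGC of the antioxidant response element and the AP-1 motif TGANTCA. Matches are in capitals in these sequences, written 5′ to 3′ on the strand of the gene.
Aldh1a1, distal start site, chr19:20492333-20492632, plus strand: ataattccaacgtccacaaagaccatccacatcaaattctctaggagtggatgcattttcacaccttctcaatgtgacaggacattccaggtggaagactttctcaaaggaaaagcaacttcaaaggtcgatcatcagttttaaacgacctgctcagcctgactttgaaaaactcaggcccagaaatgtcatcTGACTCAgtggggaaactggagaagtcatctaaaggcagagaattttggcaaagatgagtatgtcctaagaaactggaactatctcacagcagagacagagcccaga
Aldh1a1, proximal start site, chr19:20601718-20602017, plus strand: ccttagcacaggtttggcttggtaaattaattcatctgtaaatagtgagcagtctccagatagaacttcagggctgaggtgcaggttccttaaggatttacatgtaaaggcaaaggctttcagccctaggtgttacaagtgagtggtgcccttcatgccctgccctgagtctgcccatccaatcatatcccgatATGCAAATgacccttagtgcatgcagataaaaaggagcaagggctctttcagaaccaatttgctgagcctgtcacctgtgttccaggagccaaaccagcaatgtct
Aldh1a7, chr19:20727507-20727806, minus strand: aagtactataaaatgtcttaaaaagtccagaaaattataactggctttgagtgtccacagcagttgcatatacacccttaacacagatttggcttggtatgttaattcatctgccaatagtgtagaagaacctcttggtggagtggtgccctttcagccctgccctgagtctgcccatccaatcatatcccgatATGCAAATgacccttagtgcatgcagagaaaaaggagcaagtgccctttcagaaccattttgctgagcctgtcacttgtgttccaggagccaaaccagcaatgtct
In the 150 bases nearest to and past the start site, the proximal Aldh1a1 promoter and the Aldh1a7 promoter are identical at 142 positions (94.7%), without gaps. Over the full 300 bases shown they are identical at 177 positions (59%), also without gaps. Both carry an octamer that begins 56 bases before the start site, and 1.74% of all 32851 RefSeq promoters of this length contain the octamer. The distal Aldh1a1 promoter has an AP-1 match 57 bases before its start site, a motif that 7.81% of promoters contain. The xenobiotic and antioxidant cores, held by 32.4% and 12.4% of promoters, had no match in these 3 windows. Of the 7 member promoters 3 hold an octamer, the third being that of Aldh1a2. The counts cover each gene as a whole and do not tell which start site was used. A match describes these letters only and is no sign of binding.

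Of the housekeeping members, Aldh2, the mitochondrial enzyme that removes acetaldehyde, stood at 148, 124 and 126 CPM in M1 to M3, against 172, 147 and 132 CPM in W1 to W3. These ranges overlapped, and the log2 fold change of -0.18 ± 0.14 (SE) was not called (adjusted p = 0.50, edgeR). Aldh9a1, which oxidises aminobutyraldehydes on the way to carnitine and GABA, had 12.6, 16.4 and 18.2 CPM in M1 to M3, against 19.7, 19.5 and 19.5 CPM in W1 to W3. All mutant libraries were lower, by little, and the gene was not called (log2 fold change -0.31 ± 0.19, SE; adjusted p = 0.36). Aldh7a1, antiquitin of lysine breakdown, averaged 13.1 ± 1.77 CPM in mutant and 14.02 ± 4.83 CPM in wildtype (SD, n = 3 each). Exons of Aldh7a1 overlap those of Phax and exons of Aldh2 those of Gm42879, both on the opposite strand. Their counts are uncertain, as it is not stated whether the counting used strand.

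**Figure D3:**
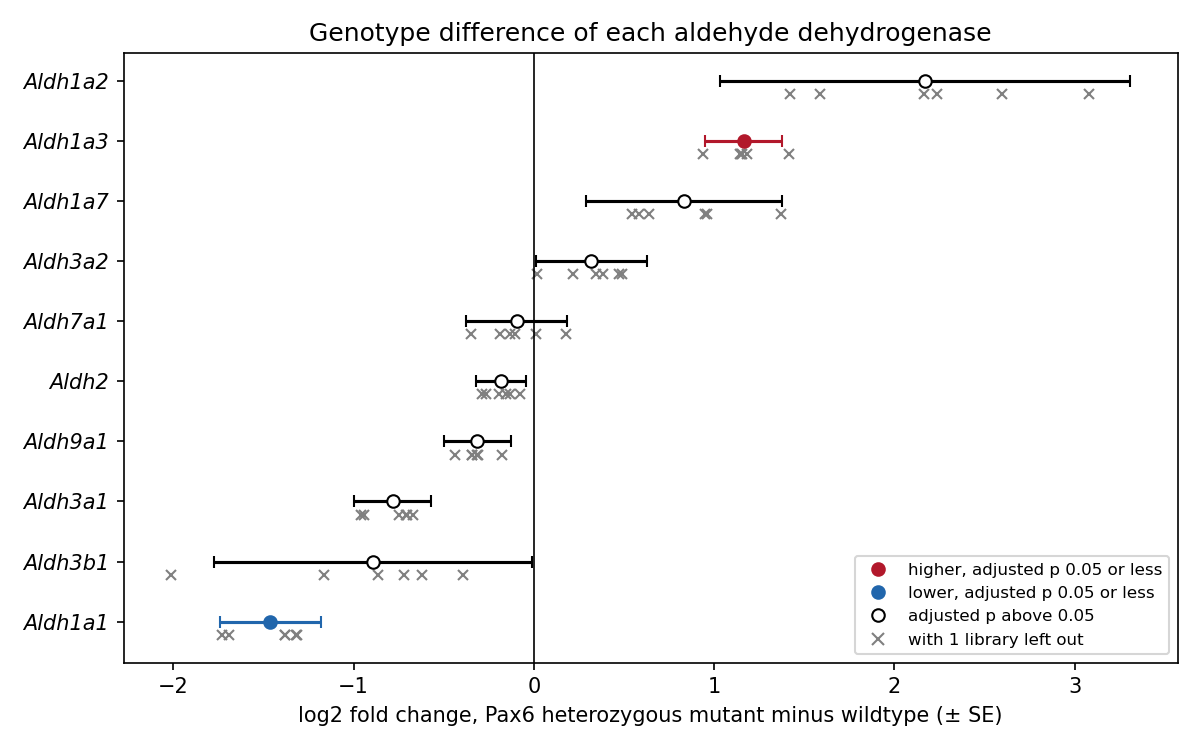
Log2 fold change of each gene, mutant minus wildtype (x axis), with its SE from the edgeR fit; filled points passed an adjusted p of 0.05 and grey crosses give the value with 1 library left out. Aldh1a1 at -1.46 and Aldh1a3 at 1.16 are the filled points, and the crosses of Aldh7a1 fall on both sides of 0.

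Levels were compared between genes per kb of exon. In mutant the order of the mean levels was Aldh3a1 (2778 CPM per kb), Aldh2 (25.9), Aldh1a3 (20.3), Aldh1a1 (9.12), Aldh9a1 (4.65), Aldh3a2 (3.77), Aldh7a1 (2.53), Aldh1a2 (2.04), Aldh1a7 (1.42) and Aldh3b1 (0.387). In wildtype it was Aldh3a1 (4779 CPM per kb), Aldh2 (29.4), Aldh1a1 (25.1), Aldh1a3 (9.07), Aldh9a1 (5.78), Aldh3a2 (3.02), Aldh7a1 (2.71), Aldh1a7 (0.794), Aldh3b1 (0.721) and Aldh1a2 (0.450). Aldh1a3 and Aldh1a1 exchanged places in this order, which depends on the merged exon lengths used. Neighbours whose libraries overlapped in mutant were Aldh9a1 and Aldh3a2, Aldh7a1 and Aldh1a2, and Aldh1a2 and Aldh1a7. In wildtype they were Aldh2 and Aldh1a1, Aldh3a2 and Aldh7a1, Aldh1a7 and Aldh3b1, and Aldh3b1 and Aldh1a2. Aldh3a1 made up 97.0% to 98.1% of the summed per-kb level of the 10 genes in mutant and 98.1% to 98.7% in wildtype.

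Of the 11 remaining aldehyde dehydrogenase genes of the mouse, 9 were tested. By edgeR 0 were called in either direction, where 10.1% of all tested genes were called. At an unadjusted p under 0.05 there were 2, Aldh1l1 and Aldh6a1, both lower. DESeq2 and limma-voom also called 0. Per kb, Aldh3b2, a relative of Aldh3b1 with sequence shared with Aldh3b3, was the second most abundant of all 21 genes at 40.4 CPM per kb in mutant and 42.4 in wildtype, and its log2 fold change was -0.07 ± 0.13 (SE). Aldh1l1, the cytosolic formyltetrahydrofolate dehydrogenase, averaged 3.91 ± 0.995 CPM in mutant and 7.03 ± 1.67 CPM in wildtype (SD, n = 3 each), and its mitochondrial counterpart Aldh1l2 averaged 2.59 ± 1.48 CPM in mutant and 0.552 ± 0.485 CPM in wildtype. Aldh6a1, of valine breakdown, averaged 24.1 ± 1.26 CPM in mutant and 30.5 ± 0.834 CPM in wildtype. Aldh5a1, which clears succinic semialdehyde, averaged 13.4 ± 0.348 CPM in mutant and 9.36 ± 2.02 CPM in wildtype. None of these 4 passed the threshold (adjusted p = 0.18 for Aldh1l1, 0.26 for Aldh1l2, 0.16 for Aldh6a1 and 0.21 for Aldh5a1, edgeR). Their libraries did not overlap, which held for 31.9% of all tested genes in either direction. Exons of Aldh1l1, Aldh5a1 and Aldh6a1 overlap genes on the opposite strand, and those of Aldh4a1 and Aldh1l2 share sequence with another gene, so these counts are uncertain. Aldh18a1, of proline synthesis, stood at 13.8, 18.0 and 19.4 CPM in M1 to M3, against 24.3, 9.59 and 4.76 CPM in W1 to W3, and was called higher once W1 was left out (adjusted p = 0.044, edgeR). Aldh3b3, Aldh4a1 and Aldh16a1 had log2 fold changes of -0.17, -0.10 and -0.19. Aldh1b1, with 7 to 18 counts per library, and Aldh8a1, with 2 counts in W3 and 0 elsewhere, were too low to test.

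Enzymes that supply or share the substrates of the family were read from the same fit. Among 16 listed alcohol and retinol dehydrogenases, 13 were tested, of which 2 rose and 0 fell by edgeR. Over all genes tested 5.59% were called higher and 4.46% lower. At an unadjusted p under 0.05 in edgeR, 3 were higher and 1 was lower. DESeq2 called 3 higher and limma-voom 2 higher, and both called 0 lower. The median log2 fold change of the 13 was 0.21, beside 0.01 over all tested genes. Adh7, the class of alcohol dehydrogenase with high activity on retinol, stood at 299, 200 and 295 CPM in M1 to M3, against 56.0, 105 and 112 CPM in W1 to W3. It was 2.90-fold higher in mutant without overlap (adjusted p = 0.012), and missed the threshold without M1 (0.0505) or M3 (0.059). Rdh16, a microsomal retinol dehydrogenase, stood at 11.6, 11.9 and 10.5 CPM in M1 to M3, against 2.50, 2.90 and 2.25 CPM in W1 to W3, a 4.44-fold higher level that passed in every alternative run (adjusted p = 0.0027, edgeR). Adh1, the classical alcohol dehydrogenase of the liver, averaged 461 ± 58.9 CPM in mutant and 388 ± 93.3 CPM in wildtype and was not called. Adh7 and Adh1 each overlap an antisense gene, and Rdh16 shares exon sequence with a pseudogene, so these counts are uncertain.

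Of 15 reductases and transferases that remove aldehydes by other routes 13 were tested, and 2 rose and 0 fell, with 1 lower at an unadjusted p under 0.05. Over all genes tested 5.59% were called higher and 4.46% lower. The median log2 fold change of the 13 was -0.325, beside 0.01 over all tested genes. Libraries did not overlap for 2 that were higher and 3 that were lower in mutant, where 17.1% and 14.7% of all tested genes behaved so. DESeq2 called 1 lower. Cbr2, a carbonyl reductase, stood at 369, 423 and 377 CPM in M1 to M3, against 177, 199 and 135 CPM in W1 to W3 (log2 fold change 1.20 ± 0.16, SE; adjusted p = 0.0036, edgeR). Akr1c18, a hydroxysteroid dehydrogenase of the aldo-keto reductases, had 368, 272 and 616 counts in M1 to M3, against 4, 48 and 32 in W1 to W3. Both were higher in every mutant library. The rise of Akr1c18 was 13.96-fold (adjusted p = 0.011), and missed the threshold without M3 (0.059). Gsta4, the glutathione transferase that conjugates hydroxynonenal, a substrate it shares with Aldh3a1, held 1558, 1642 and 1816 CPM in M1 to M3, against 2045, 2430 and 2175 CPM in W1 to W3. All mutant libraries were lower, but the log2 fold change of -0.41 ± 0.14 (SE) was not called (adjusted p = 0.12), and it passed in 4 of 16 alternatives.

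**Figure D4:**
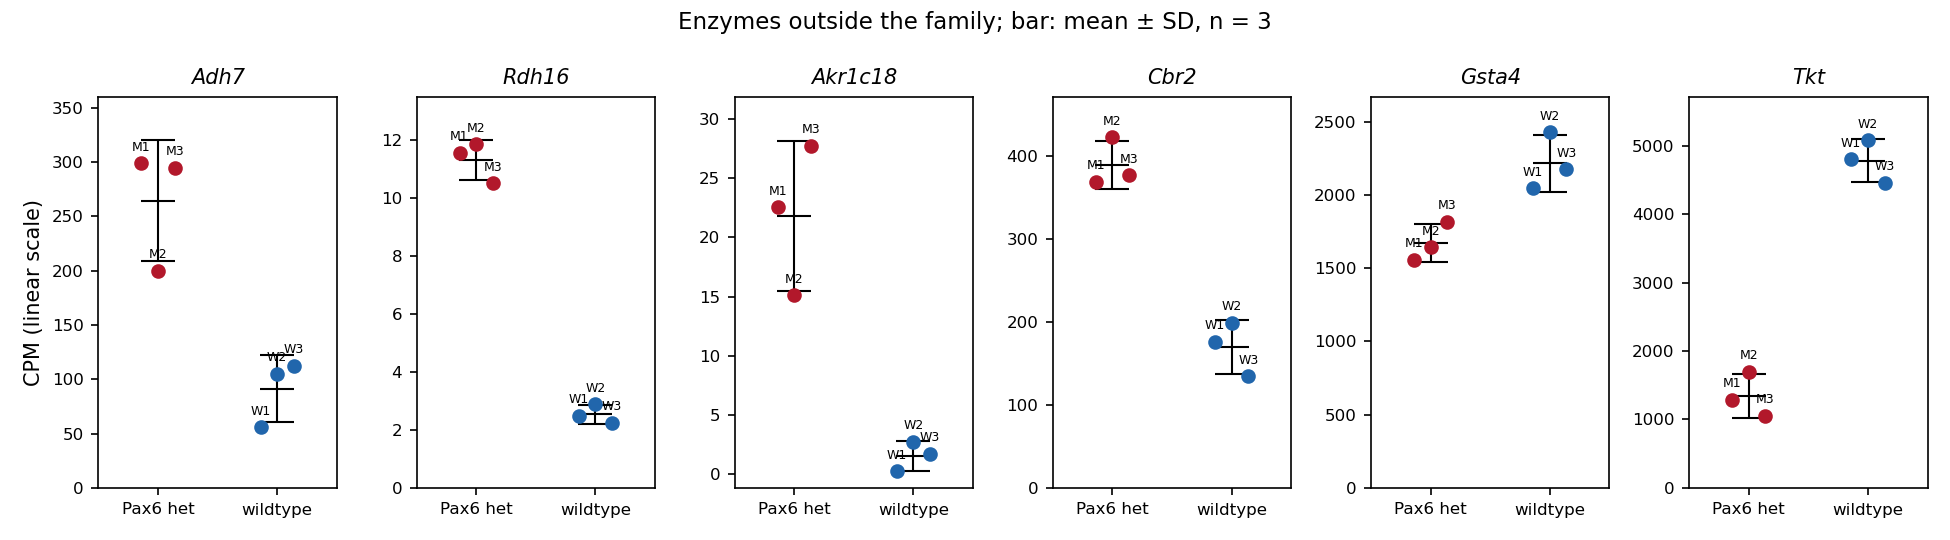
CPM (y axis, linear, own scale per panel) of 6 enzymes outside the family in mutant (red) and wildtype (blue) libraries, with mean ± SD of 3 libraries. Adh7, Rdh16, Akr1c18 and Cbr2 lie higher and Gsta4 and Tkt lower in all mutant libraries, and Gsta4 is the single one that was not called.

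Of 6 other proteins described as corneal crystallins, 1 fell and 0 rose by edgeR (0 higher at an unadjusted p under 0.05, and 0 by DESeq2). Over all genes tested 4.46% were called lower and 5.59% higher. Transketolase (Tkt) stood at 1285, 1696 and 1058 CPM in M1 to M3, against 4801, 5083 and 4463 CPM in W1 to W3. Its 3.55-fold lower level (adjusted p = 0.0016) compares with 1.72-fold for Aldh3a1, and the difference between these was not tested. Gelsolin (Gsn), an actin-severing protein, averaged 692 ± 39.3 CPM in mutant and 648 ± 52.5 CPM in wildtype. The other 4 (Eno1, Idh1, Ppia and Ldha) had log2 fold changes between -0.23 and 0.29 and were not called.

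The genes most like Aldh3a1 and Aldh1a1 were found among 3182 others with a mean of at least 50 CPM, as those whose centred log2 CPM over the 6 libraries differed least (root mean square difference). For Aldh3a1 these were the cyclin Ccnd1 (0.0875), Fdft1, which encodes squalene synthase (0.088), the chloride channel protein Clic3 (0.11), the carboxylesterase Ces2g (0.111) and the water channel Aqp5 (0.122). For Aldh1a1 they were the metal transporter Slc39a8 (0.218), the carboxylesterase Ces1d (0.231), the matrix protein Ccn1 (0.243), Ptgr1, a reductase of unsaturated aldehydes and ketones (0.245), and Cavin3 (0.245). The choice used all 6 libraries, so that these genes were lower in mutant and shared the library pattern of their match was fixed by it.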

How the data were processed

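Read counts per gene were deposited for 6 corneal libraries, 3 per genotype. Per the labels' protocols, RNA was extracted with a column kit and made into stranded total RNA libraries read as 100-nucleotide pairs. The authors' counts come from HTSeq after HISAT2 alignment to GRCm38, with Trim Galore, SAMtools and edgeR also listed, per the submitters' processing notes, which state neither versions nor the strand setting. The 5 summary lines that HTSeq adds were left out of library sizes (reads in no feature were 13.59% to 17.43% of the total). Genes were named from GENCODE M21, which matched 55240 of 55421 identifiers. From the deposited counts, edgeR 4.0.16 (R 4.3.3) with TMM factors tested mutant against wildtype with the quasi-likelihood test. Genes needed 10 counts in enough libraries and 15 in total, and calls used a Benjamini-Hochberg adjusted p of 0.05 over all genes. CPM used TMM-scaled totals, and CPM per kb the merged exon length. Alternatives used DESeq2 1.42.0, limma 3.58.1, other factors, filters and left-out libraries. The model was tested on simulated data. The 10 genes and the lists were chosen with earlier results of these data known. Named genes were the 10, the other aldehyde dehydrogenases, Pax6, the called members and the 2 of highest mean CPM of each pathway list, and the 5 genes most like Aldh3a1 and Aldh1a1. Precision covers counting error and the spread of 3 libraries.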

Additional observations from a re-analysis of the deposited data

How the results depend on the processing

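Over 38 named genes and up to 17 alternatives, 553 of 609 log2 fold changes kept their direction and side of the threshold, 31 lost and 14 gained the call, and 11 reversed. The members called lower numbered 2, Aldh3a1 with Aldh1a1, with upper-quartile factors, without composition factors, with DESeq2, with limma-voom with or without quality weights and without the low-count filter; without that filter the members called higher were also 2, and 1 alcohol or retinol dehydrogenase was called lower. Genes called higher numbered 1324 with DESeq2 and 1588 without the filter, which called 1137 lower. At an adjusted p of 0.01 the calls were 307 higher and 261 lower, with 0 members in either direction, 1 alcohol or retinol dehydrogenase and 1 reductase or transferase higher. Of the reductases and transferases 1 was lower with DESeq2, with quality weights and without replicate 1 of both groups. With 1 library left out, genes higher ranged from 340 to 1227 and lower from 271 to 847, both lowest without M3. Members higher ranged from 0 to 1, members lower from 0 to 2, other aldehyde dehydrogenases higher from 0 to 1, alcohol and retinol dehydrogenases higher from 1 to 2, and reductases and transferases from 1 to 2 higher and 0 to 2 lower. The log2 fold change reversed for Aldh7a1 with quality weights (0.006) and without M2 (0.011) or W2 (0.18), and ranged from -0.351 to 0.18 with 1 library left out. It reversed for Aldh4a1 with quality weights (0.071), without M1 (0.201) or W3 (0.298) and without replicate 1 of both groups (0.158), with a leave-one-out range of -0.391 to 0.298. Aldh18a1 reversed without W3 (-0.01, in a leave-one-out range of -0.01 to 1.25), and Aldh3a2 (-0.099), Adh1 (-0.043) and Gsn (-0.001) without replicate 1 of both groups; none of these was called in the main test. The cause was not tested. The alternatives for enzymes outside the family were added after seeing the data. No paired analysis was possible because the labels give the genotypes no shared replicate numbers. Aldh3b1, Aldh1a2 and Aldh1a7 rest on few counts, so differences in them were hard to detect at this depth.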
